A study of Mus musculus with 8 samples.

Results

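Matrix metalloproteinases (MMPs), ADAMs, ADAMTSs and the tissue inhibitors of metalloproteinases (TIMPs) were examined in cardiac adipose-derived stem cells (cADSC), the stromal progenitors that grow out of the fat around the mouse heart. The genes were taken by symbol: every row named Mmp, Adam, Adamts or Timp followed by a number was a member, which gave 79 of the 52636 genes in the tables. They comprised 23 MMP, 33 ADAM, 19 ADAMTS and 4 TIMP genes. RNA-sequencing compared WT cADSC with cADSC of mice lacking P2Y2, a receptor for the extracellular nucleotides ATP and UTP, each cultured for 7 days without UTP or with 100 µM UTP added every day. The 4 groups had 2 libraries each, made from 2 RNA pools that the study describes as coming from 2 cultures per condition. Whether the 2 pools of a group shared cultures is not stated. The p-values measure the spread between pools, 2 per group, which need not be that between cultures. The sample labels give the strain C57BL/6J, whereas the study's methods describe the P2Y2 KO line as CD1/C57BL/6J and state that mice of both sexes were used at random.

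All 4 families belong to 1 system of matrix turnover. MMPs are zinc endopeptidases, secreted or anchored in the membrane as inactive precursors, that cut collagens, gelatin, elastin, proteoglycans and other proteases. ADAMs are membrane proteins that carry a metalloproteinase and a disintegrin domain, and those with an active site release the outer part of growth factors, cytokines and receptors from the cell surface. ADAMTSs are secreted relatives with thrombospondin repeats that trim procollagens and cleave large proteoglycans such as aggrecan and versican. TIMPs bind the active site of MMPs, and TIMP3 also that of several ADAMs and ADAMTSs. In healing heart tissue these enzymes are made by fibroblasts as well as by infiltrating macrophages and neutrophils.

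Values are given as scaled counts, which are read counts that had been multiplied by 1 factor per library to a common total of 20008555 to 20015454 and rounded up. Before scaling, the libraries held an estimated 18600052 to 22018287 counted reads. Thus 10 scaled counts correspond to 0.5 CPM (counts per 1000000), and where a library shows 0 the true level may still reach 0.136 to 0.161 CPM by counting error alone. Genes above 0.5 CPM in at least 2 libraries were tested with edgeR's quasi-likelihood test on all 8 libraries together, and a gene was called when its Benjamini-Hochberg adjusted p over the 17529 genes tested was under 0.05. Log2 fold changes (log2FC) carry their standard error (SE).

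Some libraries stood apart. The first untreated WT library had no reads from Y-linked genes and the highest Xist count (9051), the first untreated and the first UTP-treated library labelled P2Y2 KO had almost no Xist (2 and 3), and the other 5 held both. Both UTP-treated WT libraries were nearly equal in Xist (4823 and 4833) and in summed Y-linked counts (1701 and 1700). They also lay closest together, with 56 genes more than 2-fold apart, against 98 to 128 within the other groups. Epithelial markers (7 genes) summed to 15.2 CPM in the first untreated WT library, 115 to 145 CPM in the other WT libraries and 22.4 to 26.8 CPM in those labelled P2Y2 KO. The targeted gene P2ry2 was read at 362 and 347 scaled counts in untreated WT libraries and at 280 and 311 in the untreated libraries labelled P2Y2 KO (log2FC -0.26, SE 0.10, adjusted p = 0.0925 from edgeR), and at 328 and 328 against 274 and 301 with UTP. Which part of the gene was deleted is not given in the sources used here, so that a count over the whole gene does not check the genotype, and the libraries are called by their label. Mesenchymal genes (10) summed to 12200 to 16900 CPM in every library, and macrophage genes (15) to 1490 to 4690 CPM. Since these are whole cultures, fewer cells of a type and less RNA per cell cannot be told apart.

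Of the 79 members, 48 passed the minimum and were tested: 17 MMPs, 13 ADAMs, 14 ADAMTSs and 4 TIMPs. Among the other 31, 15 were at 0 in all 8 libraries and 16 had some reads, with 12 scaled counts as the highest value in any library. Of those left out, 20 were ADAMs, including genes known from sperm such as Adam3 and Adam18. The members summed to 10600 CPM on average, of which TIMPs took 36.2%, ADAMTSs 26.6%, ADAMs 21.6% and MMPs 15.5%. The ratio of summed TIMP to summed MMP CPM lay between 2.0 and 2.84 in the 8 libraries, with 2.33 and 2.72 in untreated WT, 2.52 and 2.84 in WT with UTP, 2.17 and 2.15 in untreated libraries labelled P2Y2 KO, and 2.1 and 2.0 in those with UTP. Every WT library lay above every library labelled P2Y2 KO.

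Per length (CPM per 1000 bases of exon, averaged over all libraries), the inhibitors led: Timp1 stood at 738, Timp2 at 391 and Timp3 at 204. The most abundant proteases on this scale were Adam9 (178), Adamts1 (128), the gelatinase Mmp2 (86.9), the membrane-type collagenase Mmp14 (81.7), Adamts5 (80.7), Adam8 (73.6), the stromelysin Mmp3 (57.2), the macrophage elastase Mmp12 (56.4) and Adamts2 (55.0). The interstitial collagenase genes Mmp1a and Mmp1b, the matrilysin Mmp7 and the enamel protease Mmp20 were at or near 0.

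**Figure D1:**
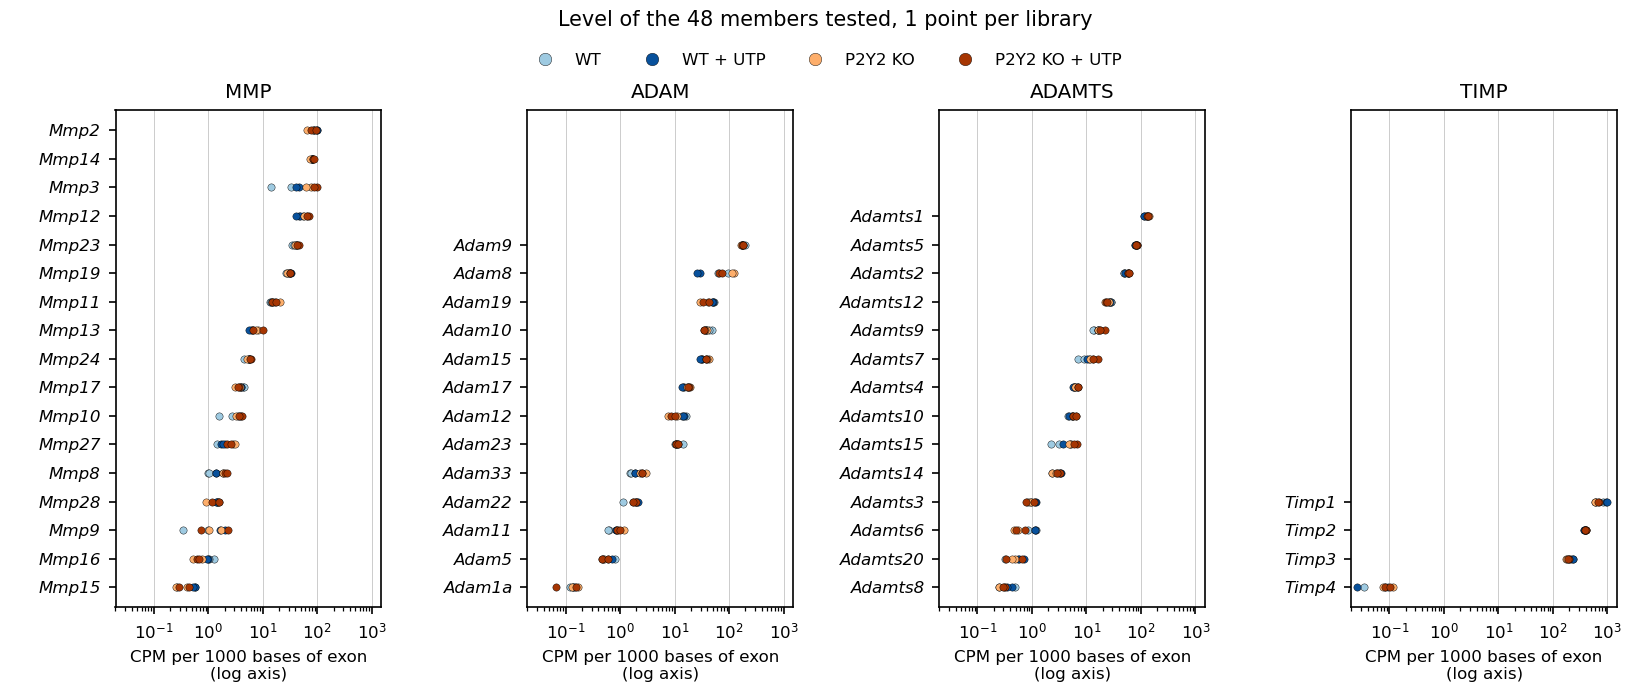
Level of each tested member in CPM per 1000 bases of exon (log axis), with 1 point per library coloured by group and genes ordered by mean level within the 4 families. Most genes keep the 8 libraries close together, whereas Adam8, Mmp3, Mmp9 and the rare Timp4 are among those that spread widely. Timp1, Timp2 and Timp3 lie at the top of all members.

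Of the MMP genes, 10 lie side by side on chromosome 9 (GRCm38, 7272514 to 7699585, a stretch of 427 kb) in the order Mmp13, Mmp12, Mmp1b, Mmp3, Mmp1a, Mmp10, Mmp8, Mmp27, Mmp20, Mmp7. This cluster holds several secreted MMPs for which AP-1, the dimer of Fos and Jun proteins, is a known activator. The AP-1 motif was searched as TGAGTCA or TGACTCA, which are reverse complements of each other, within 250 bases before the start of each RefSeq transcript (GRCm38.p6). It was present in at least 1 window of 7 of the 10 cluster genes (not in those of Mmp8, Mmp27 and Mmp20), and in 9 of the 54 windows of the 49 members that have one, against 4.46% of the 32851 windows of all genes. The other 2 members with the motif were Adam19 and Adam29. The search over the cluster was added after the values of its genes had been seen, and a match is a description of letters, not of binding.

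The last 100 bases before the start are shown for the 6 cluster genes that were tested, whose promoters differ in this motif. All but Mmp13 were called between the genotypes without or with UTP, where 20.7% and 17.4% of all genes were called. Mmp12 was called with UTP only, and the call of Mmp10 was lost in 12 of 17 other settings. The part of the motif in these calls was not tested. Capitals mark the AP-1 motif. Mmp12 has 2 annotated starts, and only the second, downstream one carries the motif. All lie on the plus strand.
Mmp13, chr9:7272414-7272513: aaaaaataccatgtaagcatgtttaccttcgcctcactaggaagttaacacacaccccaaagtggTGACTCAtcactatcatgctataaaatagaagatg
Mmp12, first start, chr9:7344297-7344396: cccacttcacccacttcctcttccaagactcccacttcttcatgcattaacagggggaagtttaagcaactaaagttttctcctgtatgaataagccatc
Mmp12, second start, chr9:7347274-7347373: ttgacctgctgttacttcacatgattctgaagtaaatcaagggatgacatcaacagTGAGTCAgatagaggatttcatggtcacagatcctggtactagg
Mmp3, chr9:7445722-7445821: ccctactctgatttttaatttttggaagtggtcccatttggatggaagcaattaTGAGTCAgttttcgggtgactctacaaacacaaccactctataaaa
Mmp10, chr9:7502242-7502341: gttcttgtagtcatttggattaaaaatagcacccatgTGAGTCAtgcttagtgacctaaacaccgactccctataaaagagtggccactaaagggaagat
Mmp8, chr9:7558329-7558428: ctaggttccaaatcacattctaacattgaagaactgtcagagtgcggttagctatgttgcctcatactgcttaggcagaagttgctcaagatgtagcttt
Mmp27, chr9:7571296-7571395: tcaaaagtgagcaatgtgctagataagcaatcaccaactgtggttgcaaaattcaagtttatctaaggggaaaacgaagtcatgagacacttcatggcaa
The motif began 35 bases before the start in Mmp13, 44 in Mmp12, 46 in Mmp3 and 63 in Mmp10. A motif of the myeloid factor PU.1, GAGGAAG on either strand, was found in 10.6% of all windows and in 7 of the 54 windows of members (Adam19, Adam29, Adam34, Mmp7, Mmp8, Mmp12 and Mmp25). Neither motif was found in the window of Adam8.

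UTP in WT cADSC moved 1 member past the test. Adam8, an ADAM of myeloid cells that sheds adhesion molecules, fell, and 0 members rose (1 of 48 tested, against 1.22% of all genes tested, 1.08% lower). At an unadjusted p under 0.05 there were 17 of the 48 members, against 3109 of the 17529 genes tested. The median log2FC of the 48 was 0.06, against 0.01 over all genes. Adam8 (ENSMUSG00000025473, chromosome 7 of GRCm38, 139978932 to 139992562, minus strand) was at 9068 and 5818 scaled counts in untreated WT libraries and at 2677 and 2431 with UTP. Both UTP-treated libraries lay below both untreated ones. The log2FC was -1.54 (SE 0.19, adjusted p = 0.0267 from edgeR), a 2.92-fold lower level. The adjusted p rose to 0.222 and 0.311 when the first and when the second UTP-treated WT library was left out, and to 0.0511 without the first untreated library labelled P2Y2 KO, so that the call was lost, whereas without the second untreated WT library 13 of 48 members and 13.8% of all genes were called.

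With UTP, Adam8 was also lower in the libraries labelled P2Y2 KO, at 11289 and 10390 scaled counts without UTP and 5984 and 6977 with UTP. The groups did not overlap. The log2FC of -0.73 (SE 0.18) did not pass (adjusted p = 0.419 from edgeR), although it was called without either untreated WT library (adjusted p = 0.0187 and 0.0193 from edgeR). With all 8 libraries, UTP in those labelled P2Y2 KO called 0 of the 48 members, against 0.0342% of all genes. At an unadjusted p under 0.05 there were 3 members, against 1325 of the 17529 genes tested. DESeq2 called 0 members, against 0.61% of all genes. The difference between both UTP effects on Adam8, -0.81 (SE 0.26), did not pass either (unadjusted p = 0.0137, adjusted p = 0.837 from edgeR). For that difference 0 members were called, against 0.0% of all genes. At an unadjusted p under 0.05 there were 2 members, against 922 of the 17529 genes tested. DESeq2 called 0 members, against 0.0342% of all genes. Averaged over both genotypes, Adam8 was again the single member called (log2FC -1.14, SE 0.13, adjusted p = 0.00988 from edgeR; 2.55% of all genes were called).

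Macrophage genes moved with Adam8. The 15 macrophage genes summed to 3620 and 2600 CPM in untreated WT libraries, 1550 and 1490 CPM with UTP, 4690 and 4050 CPM in untreated libraries labelled P2Y2 KO, and 3100 and 3300 CPM in those with UTP. None of the 15 was at 0 in all libraries, and 11 were called lower with UTP in WT and 0 in the libraries labelled P2Y2 KO. Per read of Csf1r, the receptor for the macrophage growth factor CSF1, there were 0.871 and 0.895 reads of Adam8 in untreated WT, 0.806 and 0.817 in WT with UTP, 1.02 and 0.974 in untreated libraries labelled P2Y2 KO, and 0.915 and 0.983 in those with UTP. Across all 8 libraries this ratio lay between 0.806 and 1.02, while the Adam8 level itself ran from 121 to 564 CPM. The ratio rests on Csf1r, 1 of the 15 genes, and these did not fall alike. With UTP in WT the log2FC was -1.43 (SE 0.19) for Csf1r, -1.03 (SE 0.15) for Cd68 and -0.44 (SE 0.10) for Lyz2. The median of the 15 was -1.64. Adam8 (-1.54) thus fell more than Cd68 and Lyz2 did, so that a ratio to either would not have stayed level. The part of macrophage number in the Adam8 result was not tested.

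Mmp12, the elastase that takes its name from macrophages, did not pass the test with UTP. It was at 8068 and 6806 scaled counts in untreated WT and at 7168 and 5980 with UTP, with overlapping values (log2FC -0.18, SE 0.11, adjusted p = 0.448 from edgeR). The libraries labelled P2Y2 KO had 9496 and 8194 without and 10116 and 9549 with UTP (log2FC 0.16, SE 0.11, adjusted p = 0.856 from edgeR). Per read of Csf1r there were 0.775 and 1.05 reads of Mmp12 in untreated WT and 2.16 and 2.01 with UTP, and 0.86 and 0.768 against 1.55 and 1.35 in the libraries labelled P2Y2 KO. The rise of this ratio rests on the choice of Csf1r, which itself fell with UTP in WT (log2FC -1.43, SE 0.19). Cd68 (-1.03, SE 0.15) and Lyz2 (-0.44, SE 0.10) fell less, so that a ratio to either would have risen less. In the libraries labelled P2Y2 KO the log2FC was -0.66 for Csf1r, -0.57 for Cd68 and -0.07 for Lyz2. The level of Mmp12 per macrophage was not tested. The end of Mmp12 overlaps that of Mmp1b on the other strand, and the strand setting of the counting is not given in the sources used here, so that reads of the overlap cannot be assigned with certainty.

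**Figure D2:**
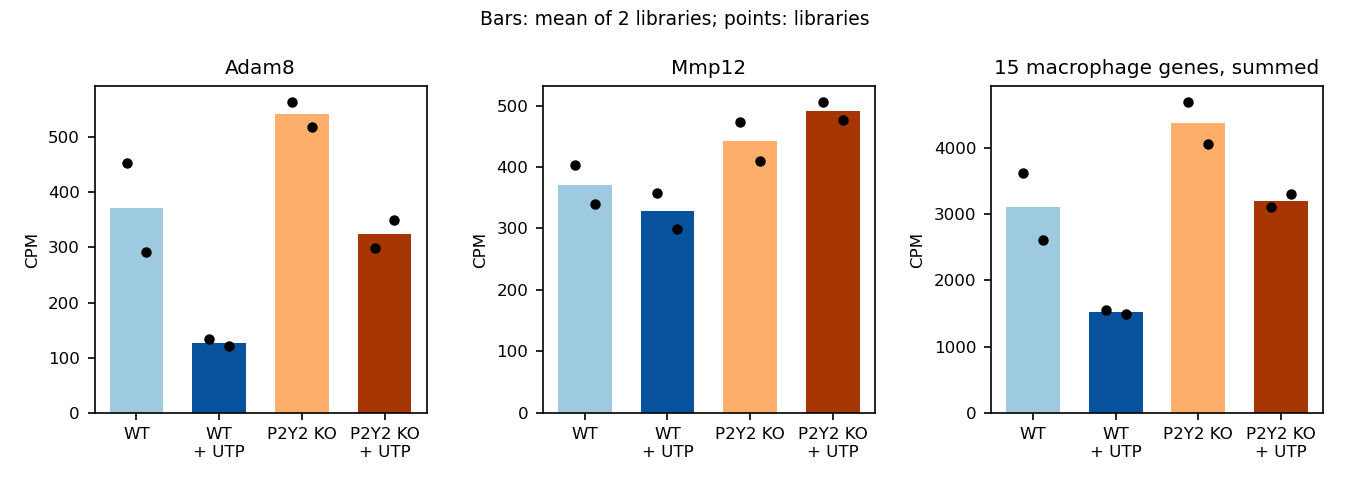
CPM of Adam8, of Mmp12 and of the 15 macrophage genes summed, with bars for the mean of 2 libraries and points for the libraries of each group (P2Y2 KO as labelled). Adam8 and the macrophage sum are lowest in WT with UTP, at 134 and 121 CPM and at 1550 and 1490 CPM, whereas Mmp12 keeps overlapping values in both WT groups.

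Mmp9 and the stromelysins Mmp3 and Mmp10 were higher on average with UTP in WT without passing the test. Mmp11, also a stromelysin, had a log2FC of 0.16 there (SE 0.14, adjusted p = 0.579 from edgeR). In the libraries labelled P2Y2 KO that of Mmp11 was -0.14 (SE 0.14, adjusted p = 0.921 from edgeR). Mmp9, the gelatinase B of leukocytes and activated stroma, was at 25 and 71 scaled counts without UTP and at 147 and 118 with UTP (log2FC 1.47, SE 0.57, adjusted p = 0.239 from edgeR). In the libraries labelled P2Y2 KO its values overlapped, at 74 and 120 untreated and 165 and 52 with UTP (log2FC 0.16, SE 0.53, adjusted p = 0.984 from edgeR). Mmp3, which cuts proteoglycans and activates other MMPs, was at 510 and 1203 scaled counts without UTP and 1657 and 1486 with UTP in WT (log2FC 0.88, SE 0.31, adjusted p = 0.201 from edgeR). Mmp10 was at 54 and 94 untreated and 132 and 122 with UTP in WT (log2FC 0.78, SE 0.23, adjusted p = 0.156 from edgeR). In the libraries labelled P2Y2 KO the log2FC was 0.44 for Mmp3 and 0.11 for Mmp10 (adjusted p = 0.836 and 0.973 from edgeR). For Mmp9, Mmp3 and Mmp10 both UTP-treated WT libraries lay above both untreated ones. The lowest of all 8 for each was the first untreated WT library, the one without Y-linked reads and with few epithelial transcripts. In the WT libraries that held both Xist and Y-linked reads, Mmp3 stood at 1203 without UTP against 1657 and 1486 with UTP. Mmp9 stood at 71 against 147 and 118. The untreated side is then 1 library, so that no test is read from it.

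Timp1, an inhibitor induced by cytokines, was at 10920 and 14526 scaled counts in untreated WT and at 16784 and 17359 with UTP (log2FC 0.43, SE 0.11, adjusted p = 0.111 from edgeR). The libraries labelled P2Y2 KO had 10687 and 10310 without and 12483 and 11869 with UTP (log2FC 0.22, SE 0.11, adjusted p = 0.709 from edgeR). Adamts15, a proteoglycanase, was at 464 and 640 scaled counts in untreated WT and 1034 and 771 with UTP (log2FC 0.71, SE 0.17, adjusted p = 0.0849 from edgeR). Both genes had no overlap between untreated and UTP-treated libraries in either genotype. DESeq2 called both higher in WT (adjusted p = 0.00548 and 0.00102).

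Under a fold change rule without a test (a mean above 0.5 CPM in either condition and a ratio above 2 or below 0.5), 48 members were above the minimum in WT. Mmp9 lay above 2, and Adam8 and Adamts19 below 0.5, which is 3 members against 3.08% of all genes past the rule. In the libraries labelled P2Y2 KO no member passed it, against 1.36% of all genes. Adamts19, an ADAMTS of unsettled substrate, rests on 9 and 12 scaled counts without UTP and 4 and 6 with UTP, in WT, and on 5 and 4 against 2 and 3 in the libraries labelled P2Y2 KO. Mmp25, a membrane-anchored MMP of leukocytes, showed 8 and 6 scaled counts without UTP and 2 and 4 after UTP in WT, 8 and 3 against 9 and 11 in the libraries labelled P2Y2 KO, and lay below the minimum in WT. Mmp1b had 0 and 1 untreated and 0 and 2 with UTP in WT, and 3 and 2 against 2 and 5 in the libraries labelled P2Y2 KO. At such counts no difference can be read.

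Among all 17 MMPs tested, 11 had a log2FC above 0 with UTP in WT, against 9119 of the 17529 genes tested. In the libraries labelled P2Y2 KO 15 did, against 8933 of the 17529. The medians were 0.15 and 0.14, against 0.01 and 0.0 over all genes. In either genotype 0 MMPs were called, where 1.22% and 0.0342% of all genes were. Mmp8, a collagenase of neutrophils, was at 48 and 50 scaled counts in untreated WT and 67 and 69 with UTP, which did not overlap (log2FC 0.47, SE 0.15, adjusted p = 0.176 from edgeR). The 3 MMPs with the highest CPM were Mmp14, Mmp12 and Mmp2. Mmp14, which activates Mmp2 at the cell surface, was at 9466 and 9724 scaled counts without UTP and 9661 and 9695 with UTP in WT, and at 8775 and 10035 against 10100 and 10499 in the libraries labelled P2Y2 KO. Mmp2 was at 6661 and 6004 against 6577 and 5994 in WT, and at 4389 and 5688 against 5272 and 6319 in the libraries labelled P2Y2 KO. WT values overlapped for both genes.

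**Figure D3:**
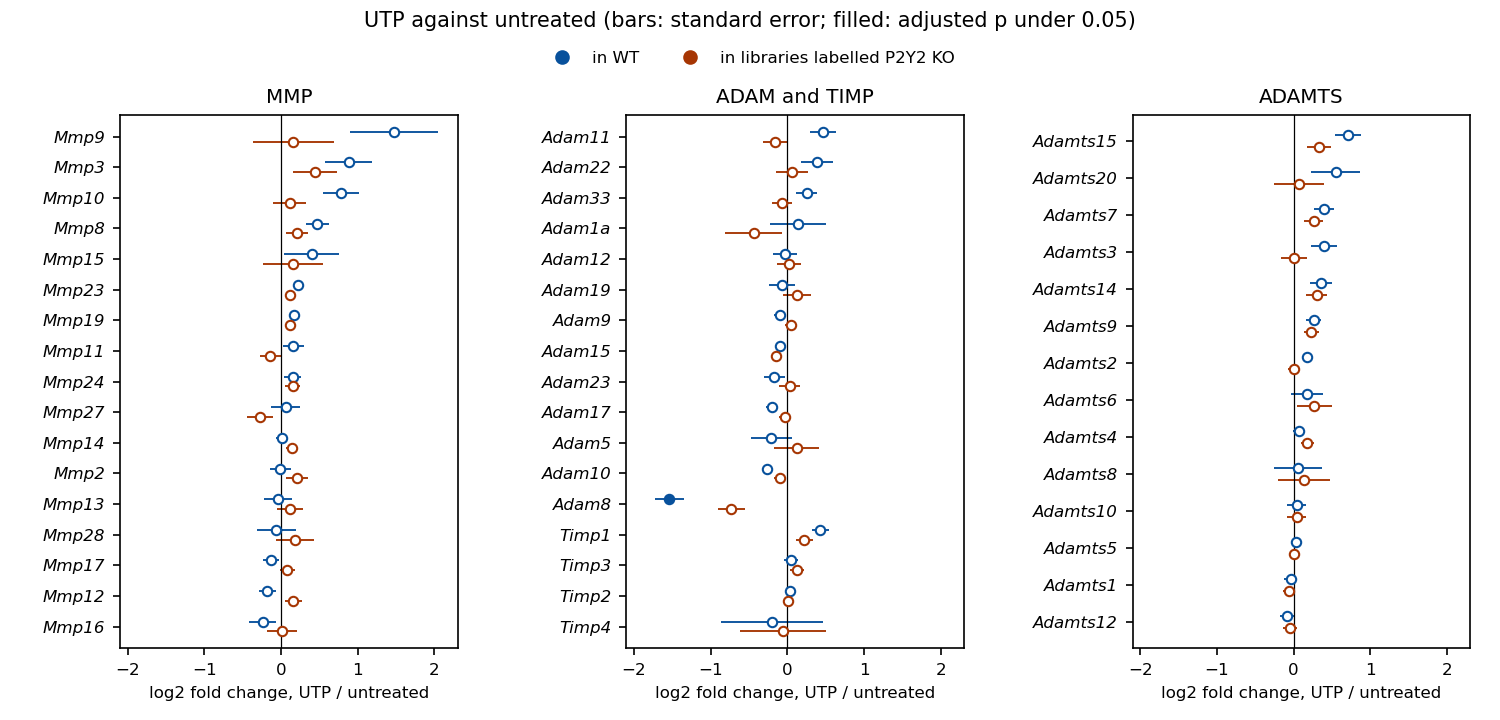
Log2 fold change of UTP against untreated for the 48 tested members, in WT and in the libraries labelled P2Y2 KO, with bars for the standard error and filled points for an adjusted p under 0.05. Adam8 in WT (-1.54) is the single filled point, and Mmp9 (1.47) has the widest bar of the MMPs in WT.

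More members were called between libraries labelled P2Y2 KO and WT than with UTP. Without UTP, 11 members were higher and 5 lower (16 of 48 tested), where 20.7% of all genes tested were called (10.5% higher and 10.2% lower). The median log2FC was 0.09, against 0.02 over all genes. Higher were the MMPs Mmp3, Mmp8, Mmp10 and Mmp27, the ADAMs Adam11, Adam15 and Adam33, and the ADAMTSs Adamts2, Adamts7, Adamts9 and Adamts15. Lower were Mmp16, Mmp17, Adam10, Adam12 and Adamts6. Without the first untreated library labelled P2Y2 KO, 3 of the 16 remained called (Adam15, Adam33 and Mmp8; 4.13% of all genes), and with the Xist level as a covariate 5 members were called (8.19% of all genes), of which the same 3 were shared. Among the 17 other settings, the call was lost in 12 for Mmp10, 10 for Mmp17, 7 for Adamts9, 6 for Adam10, 5 for Mmp27, 2 to 4 for 8 others and none for Adam15, Adam33 and Mmp8. This comparison and that of UTP in WT use the same untreated WT libraries. Of the 7 epithelial markers, 4 were called lower and 1 higher in the same comparison, and 6 were called lower with UTP; their part in these results was not tested.

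With UTP, 7 members were higher (Mmp3, Mmp8, Mmp12, Adam8, Adam15, Adam17 and Adamts7) and 3 lower (Adam12, Adamts6 and Timp1), where 17.4% of all genes were called (9.52% higher and 7.9% lower), a share close to that of the members (10 of 48). Only 1 was called without the second UTP-treated WT library (Adam8; 3.66% of all genes), and 2 without the first (Adam8 and Mmp12; 4.53%) or without the first UTP-treated library labelled P2Y2 KO (Adam8 and Adam15; 6.65%). A fit on the 5 libraries that held both Xist and Y-linked reads had 1 library in every group but WT with UTP. Its spread came from that pair alone, which had 56 genes more than 2-fold apart, against 98 to 128 within the other groups. Its calls are therefore not set beside these, although it is 1 of the 17 other settings in which calls were counted as kept or lost. Among the 17 other settings, the call was lost in 9 for Mmp3, 8 for Adamts7, 5 for Mmp8, 2 to 4 for 6 others and none for Adam8.

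In the cluster on chromosome 9, all 6 tested genes had a positive log2FC in both comparisons. Over all 17529 genes tested, 9087 did without UTP and 8896 with UTP. The log2FC of Mmp10 with UTP was smaller than its SE (0.11, SE 0.22). Mmp3 was at 510 and 1203 scaled counts in untreated WT and 2740 and 2214 in the untreated libraries labelled P2Y2 KO, which did not overlap. It was higher by a log2FC of 1.53 (SE 0.30, adjusted p = 0.0128 from edgeR), and with UTP by 1.09 (SE 0.29, adjusted p = 0.0377 from edgeR), at 1657 and 1486 against 3580 and 3094, a call lost in 9 of the 17 other settings: with DESeq2, limma or the replicate block, and without any 1 of the UTP-treated WT libraries or of those labelled P2Y2 KO. Mmp8 was at 48 and 50 against 92 and 90 without UTP, and at 67 and 69 against 101 and 108 with UTP. Both libraries of a group lay close together, and the log2FC was 0.89 (SE 0.15, adjusted p = 0.00751 from edgeR) and 0.62 (SE 0.14, adjusted p = 0.0197 from edgeR). Neutrophil markers (8 genes) summed to 0.899 to 2.25 CPM in all libraries, near 0.

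Mmp10 (54 and 94 against 141 and 114 without UTP) had a log2FC of 0.78 (SE 0.23, adjusted p = 0.0482 from edgeR). With UTP it overlapped, at 132 and 122 against 147 and 126. Mmp27, an MMP that human cells retain in the endoplasmic reticulum, was at 64 and 90 against 125 and 135 without UTP (log2FC 0.75, SE 0.18, adjusted p = 0.0229 from edgeR), and at 77 and 83 against 100 and 114 with UTP (adjusted p = 0.146). Mmp12 was called with UTP, at 7168 and 5980 in WT and 10116 and 9549 in the libraries labelled P2Y2 KO (log2FC 0.58, SE 0.11, adjusted p = 0.0117 from edgeR), and without UTP its log2FC was 0.25, again with no overlap (adjusted p = 0.154); the difference between both did not pass (adjusted p = 0.837). Mmp13, the main collagenase of mouse stroma, was at 342 and 332 scaled counts against 432 and 400 without UTP (log2FC 0.30, adjusted p = 0.245) and did not pass. Of the 4 cluster genes called without UTP, 2 had the AP-1 motif near the annotated start (Mmp3 and Mmp10) and 2 did not (Mmp8 and Mmp27). The tested cluster genes not called without UTP, Mmp12 and Mmp13, also had it, Mmp12 at its second start alone. A link between motif and call was not tested.

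**Figure D4:**
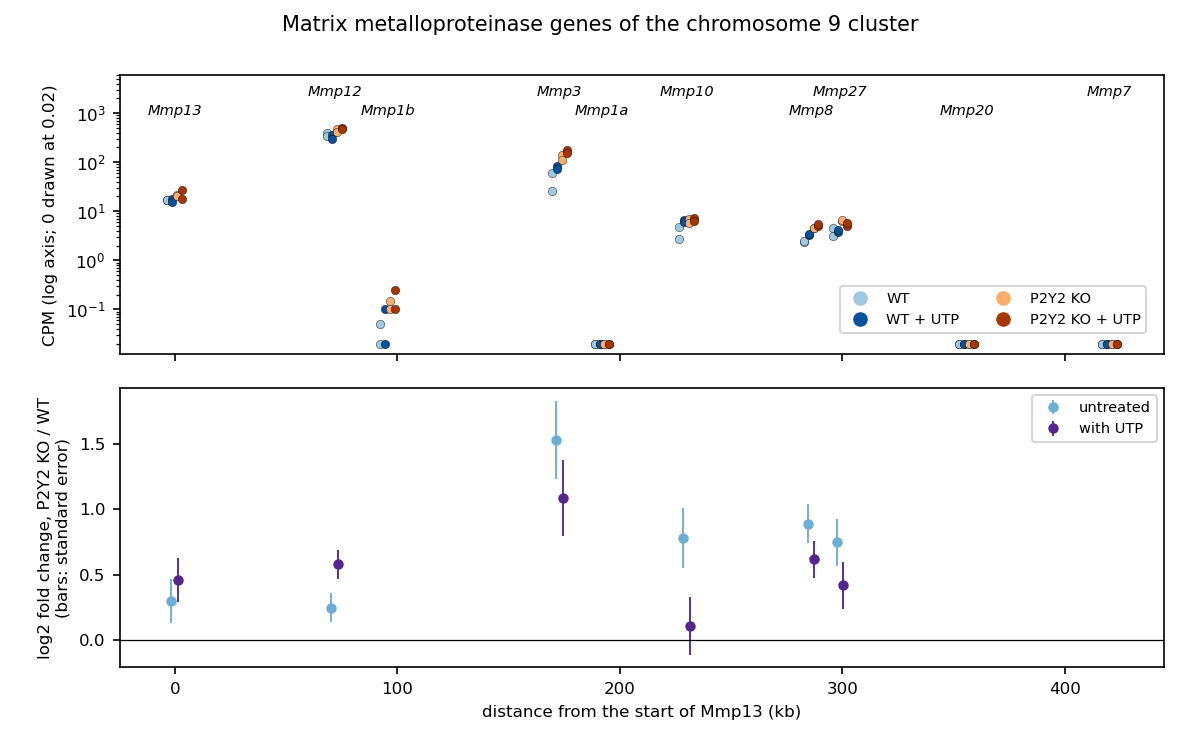
The 10 MMP genes of the chromosome 9 cluster by distance from the start of Mmp13 in kb. Above, CPM of each library (log axis, 0 drawn at 0.02) by group, side by side at each gene. Below, log2 fold change of libraries labelled P2Y2 KO against WT with standard errors for the 6 tested genes. All 6 lie above 0, as do 9087 of the 17529 genes tested without UTP and 8896 with UTP. The bar of Mmp10 with UTP (0.11, SE 0.22) crosses 0.

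Of the 5 membrane-type MMPs tested, 2 were called lower without UTP, where 10.2% of all genes were. With UTP 0 were called, where 7.9% of all genes were lower. The difference between the conditions was called for 0.0% of all genes. Mmp16 was at 219 and 179 scaled counts in untreated WT and 93 and 135 in the untreated libraries labelled P2Y2 KO (log2FC -0.80, SE 0.19, adjusted p = 0.0223 from edgeR). Mmp17, which is held by a lipid anchor, was at 566 and 608 against 413 and 504 (log2FC -0.36, SE 0.10, adjusted p = 0.042 from edgeR), a call lost in 10 of the 17 other settings. With UTP the same comparison did not pass for Mmp16 (172 and 166 against 109 and 120, adjusted p = 0.0803) or Mmp17 (535 and 538 against 495 and 471, adjusted p = 0.363). Over all 5 membrane-type MMPs, the log2FC lay between -0.80 and 0.10 without UTP and between -0.57 and 0.09 with UTP.

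Among the ADAMs with an active site, Adam8 differed most between the genotypes with UTP. It was at 2677 and 2431 scaled counts in WT and 5984 and 6977 in the libraries labelled P2Y2 KO, a 2.55-fold higher level (log2FC 1.35, SE 0.19, adjusted p = 0.00374 from edgeR), and stayed called in all 17 other settings. Of the 15 macrophage genes, 12 were called higher in the same comparison. Without UTP, Adam8 was at 9068 and 5818 against 11289 and 10390 (log2FC 0.54, SE 0.18, adjusted p = 0.0708 from edgeR), and 4 macrophage genes were called higher. Their part in the Adam8 result was not tested.

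Adam15, a membrane protease of stromal and vascular cells, was at 3901 and 3895 scaled counts against 5337 and 4943 without UTP, and at 3684 and 3585 against 4558 and 4650 with UTP. It was higher by 1.32-fold (log2FC 0.40, SE 0.06, adjusted p = 0.00459 from edgeR) and 1.27-fold (log2FC 0.35, SE 0.06, adjusted p = 0.00592 from edgeR). The groups did not overlap in either condition. Adam33, an ADAM of mesenchymal cells, was at 166 and 171 against 249 and 325 without UTP (log2FC 0.77, SE 0.14, adjusted p = 0.00927 from edgeR), and at 201 and 199 against 269 and 276 with UTP (adjusted p = 0.0545). The calls of Adam15 and Adam33 without UTP held in all 17 other settings.

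Adam12, an ADAM of mesenchymal progenitors and muscle precursors, was lower in the libraries labelled P2Y2 KO under both conditions. It was at 3365 and 2946 scaled counts against 1613 and 2305 without UTP (log2FC -0.69, SE 0.16, adjusted p = 0.023 from edgeR), and at 3214 and 2964 against 1812 and 2145 with UTP (log2FC -0.64, SE 0.16, adjusted p = 0.0314 from edgeR). The first library labelled P2Y2 KO, the one without Xist, was the lower of the pair in each condition. Adam19, its nearest relative, had the same order, at 7556 and 7343 against 4119 and 5971 without UTP and at 7225 and 6966 against 4780 and 6213 with UTP, and did not pass (adjusted p = 0.0543 and 0.192 from edgeR).

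Adam10, the main sheddase of Notch and cadherins, was at 4713 and 4224 scaled counts against 3807 and 3516 without UTP (log2FC -0.29, SE 0.07, adjusted p = 0.0241 from edgeR), and at 3785 and 3695 against 3483 and 3333 with UTP (adjusted p = 0.238). Adam17, which releases TNF and ligands of the EGF receptor, had overlapping values without UTP, at 2519 and 2169 against 2717 and 2466. With UTP it was at 2077 and 1992 against 2574 and 2481 (log2FC 0.32, SE 0.08, adjusted p = 0.0318 from edgeR). Adam9, the ADAM with the highest CPM, was at 16259 and 14619 against 13651 and 14649 without UTP and 14401 and 14492 against 14069 and 15151 with UTP, overlapping in both. Adam11, which lacks an active site, was at 71 and 69 against 136 and 104 without UTP (log2FC 0.77, SE 0.17, adjusted p = 0.0175 from edgeR), and at 96 and 97 against 99 and 114 with UTP (adjusted p = 0.59).

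**Figure D5:**
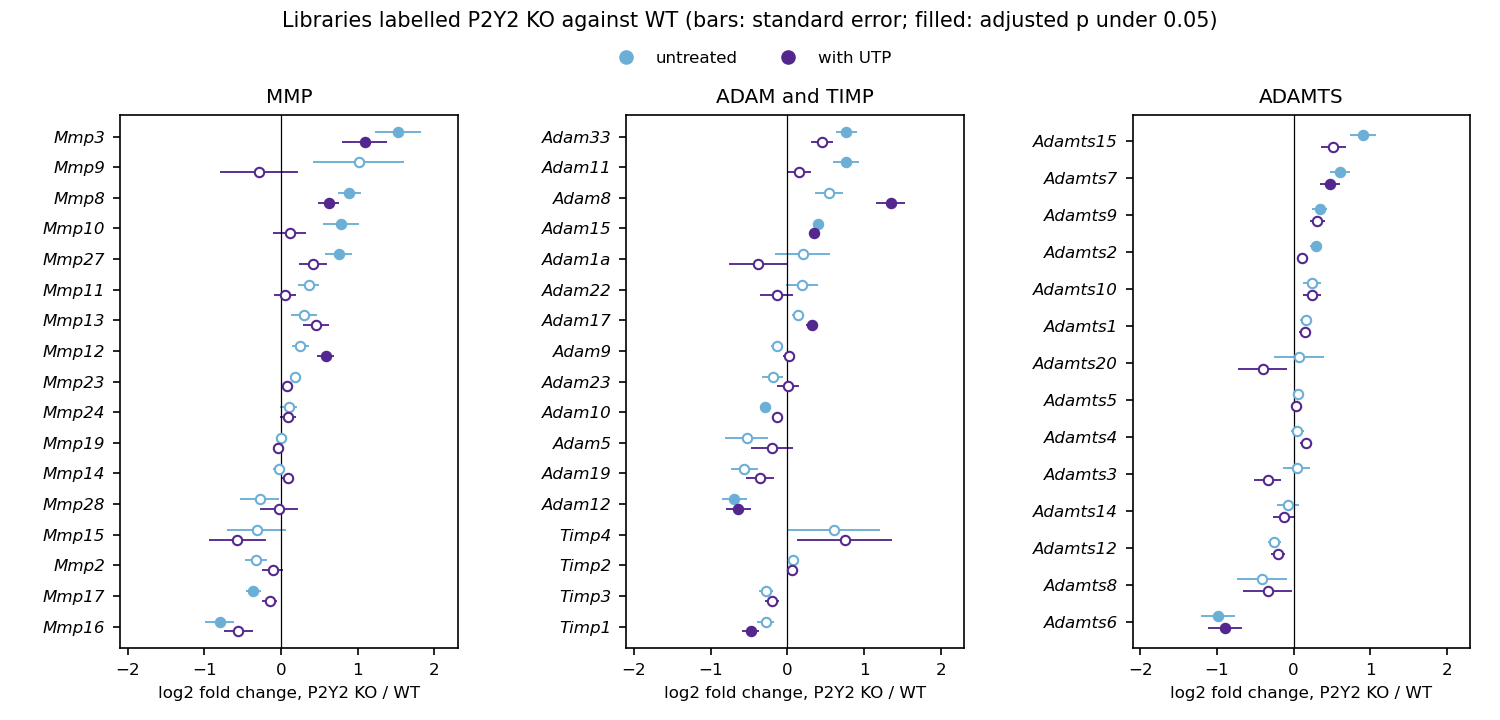
Log2 fold change of libraries labelled P2Y2 KO against WT for the 48 tested members, without and with UTP, with bars for the standard error and filled points for an adjusted p under 0.05. There are 16 filled points without UTP and 10 with UTP, led by Mmp3 (1.53) and Adam8 (1.35), with Adamts6 lowest in both (-0.99 and -0.89).

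Among the ADAMTSs, Adamts6, a relative of Adamts10 with a role in heart development in mice, was lower in the libraries labelled P2Y2 KO, at 133 and 187 scaled counts against 73 and 88 without UTP (log2FC -0.99, SE 0.22, adjusted p = 0.0194 from edgeR) and at 179 and 180 against 79 and 114 with UTP (log2FC -0.89, SE 0.22, adjusted p = 0.0262 from edgeR). No value of 1 genotype reached those of the other. Adamts15 was higher without UTP, at 464 and 640 against 1083 and 989 (log2FC 0.91, SE 0.17, adjusted p = 0.00982 from edgeR), and at 1034 and 771 against 1374 and 1210 with UTP it did not pass (adjusted p = 0.0563). Adamts7, which cleaves the cartilage protein COMP, was at 882 and 1149 against 1656 and 1443 without UTP (log2FC 0.61, SE 0.13, adjusted p = 0.0179 from edgeR) and at 1405 and 1267 against 2034 and 1650 with UTP (log2FC 0.47, SE 0.13, adjusted p = 0.0439 from edgeR).

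Adamts2, the procollagen N-propeptidase of fibroblasts, was at 8966 and 9017 scaled counts against 11138 and 10820 without UTP, 1.22-fold higher (log2FC 0.29, SE 0.07, adjusted p = 0.0207 from edgeR), and at 10753 and 9550 against 10827 and 11087 with UTP (adjusted p = 0.269). Adamts9, a versican-cleaving enzyme, was at 4060 and 4004 against 5280 and 4971 without UTP (log2FC 0.34, SE 0.10, adjusted p = 0.0405 from edgeR), and at 4831 and 4806 against 6710 and 5243 with UTP (adjusted p = 0.0587). The ADAMTSs with the highest CPM moved little. Adamts5, the main aggrecanase in mice, ran from 16677 to 18346 over the 8 libraries, at 17310 and 16758 in untreated WT, 17990 and 16677 with UTP, 18346 and 17170 in the untreated libraries labelled P2Y2 KO and 17896 and 17320 with UTP. Adamts1 was at 13755 and 12309, 13092 and 12227, 14767 and 14503, and 13462 and 14482 in the same order.

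Of the inhibitors, Timp1 (chromosome X, 20870166 to 20874735) was lower in the libraries labelled P2Y2 KO with UTP, at 16784 and 17359 scaled counts in WT against 12483 and 11869 (log2FC -0.48, SE 0.11, adjusted p = 0.0209 from edgeR). Without UTP it was at 10920 and 14526 against 10687 and 10310 (log2FC -0.28, SE 0.11, adjusted p = 0.107 from edgeR), and all 4 libraries labelled P2Y2 KO with or without UTP were below every WT library with UTP. Timp3, which is bound to the matrix, was at 32159 and 38524 against 28405 and 29676 without UTP (adjusted p = 0.0516) and 35476 and 37733 against 32721 and 30722 with UTP (adjusted p = 0.146). Timp2, which assists the activation of Mmp2 by Mmp14, stayed between 28811 and 31711 in all libraries, at 28811 and 30106 in untreated WT, 29402 and 30782 with UTP, 31105 and 31337 in the untreated libraries labelled P2Y2 KO and 31711 and 30749 with UTP. Timp4 was rare, at 11 and 4, 10 and 3, 9 and 14, and 10 and 12 scaled counts in the same order of groups. Timp1, Timp3 and Timp4 each lie across a synapsin gene of the other strand (Syn1, Syn3 and Syn2).

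Regulators of these proteases outside the 4 families were followed in a list of 35 genes, of which 31 were tested. UTP called 0 of them in WT and 0 in the libraries labelled P2Y2 KO, and averaged over genotypes Tspan14, a tetraspanin partner of Adam10, was lower (log2FC -0.39, SE 0.05, adjusted p = 0.0129 from edgeR). Without UTP, 7 were higher and 2 lower in the libraries labelled P2Y2 KO, with a median log2FC of 0.11. With UTP, 4 were higher and 3 lower. In the same comparisons 20.7% and 17.4% of all genes were called, and nothing particular to the list is read from its counts of 9 and 7.

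Rhbdf2, the iRhom2 protein that carries Adam17 to the surface of macrophages, was at 354 and 372 scaled counts in untreated WT against 713 and 668, and at 281 and 276 against 660 and 564 with UTP. It was higher by log2FC 0.93 (SE 0.09, adjusted p = 0.00133 from edgeR) and 1.14 (SE 0.09, adjusted p = 0.000707 from edgeR). Tspan14 was at 832 and 791 against 1189 and 1049, and at 629 and 603 against 838 and 868 with UTP (adjusted p = 0.00676 and 0.00582 from edgeR). Serpine2, a protease inhibitor, was at 2312 and 3324 against 4133 and 3997, and at 3468 and 3214 against 5233 and 4732 (adjusted p = 0.0314 and 0.0237 from edgeR). Adamtsl5, an ADAMTS-like protein without a protease domain, was at 622 and 675 against 877 and 1010, and at 691 and 647 against 1010 and 974 (adjusted p = 0.00635 and 0.0043 from edgeR).

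Lrp1, the receptor that clears MMPs and TIMPs, Bsg, an inducer of MMPs, and Papln, an ADAMTS-like matrix protein, were called higher without UTP alone (log2FC 0.33, 0.20 and 1.03, adjusted p = 0.0182, 0.0452 and 0.0319 from edgeR). Tll1, a procollagen C-proteinase, was at 371 and 467 scaled counts against 169 and 220, and at 470 and 543 against 247 and 300 with UTP, lower in both (adjusted p = 0.00634 and 0.0103 from edgeR). Thbs2, a matricellular protein that helps remove Mmp2, was at 10777 and 13136 against 6387 and 7398, and at 16496 and 15118 against 7675 and 7805 with UTP (log2FC -0.80 and -1.03, adjusted p = 0.0037 and 0.00166 from edgeR). Pcolce2, which enhances procollagen C-proteinases, was called lower with UTP (log2FC -0.52, SE 0.14, adjusted p = 0.034 from edgeR).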

How the data were processed

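RNA of 8 pools was made into stranded mRNA libraries and sequenced as paired reads. Trimming by the authors used Trimmomatic, alignment STAR on the mm10 genome (GRCm38.p4), and gene counts came from HTSeq with Ensembl genes; tool versions and the strand setting are not given in the sources used here. The deposited values are estimated counts that the authors multiplied by 1 factor per library (0.9084 to 1.07525, estimated here) and rounded up; the deposited averages and UTP ratios were not used. In 2 libraries a value of 2 is 1 read. The tables of both genotypes were joined, since each library was scaled to the same total, and gene names turned into dates (14) were restored by identifier.

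The test was edgeR 4.0.16 under R 4.3.3, on 17529 genes above 0.5 CPM in at least 2 libraries (TMM, 4 groups in 1 model, 4 residual degrees of freedom, Benjamini-Hochberg, threshold 0.05); the procedure was tested on simulated data. The smallest p of an exact permutation test is 0.333 for such groups. SE is the log2FC over the square root of F. The 17 other settings were DESeq2 1.42.0, limma 3.58.1 with trend on log2(CPM + 0.5), library size, 2 CPM as the minimum or none, a replicate block, scaling undone, each of 8 libraries left out, and 2 chosen after seeing the data: Xist as a covariate, and the 5 libraries with both Xist and Y-linked reads. Positions and exon lengths come from GENCODE M21, promoters from RefSeq. Genes given by library are the members called in any comparison, the 3 highest by CPM per family, all 4 TIMPs and those the study names; Mmp13 was added after values were seen, as a tested gene of the cluster. Members, lists and tests were chosen with earlier results of these data known.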

Additional observations from a re-analysis of the deposited data

How the results depend on the processing

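Of 40 single-gene effects under 17 other settings, 541 values kept direction and side of the threshold, 112 lost their call, 23 gained one and 4 reversed; all 4 were Mmp9 with UTP in the libraries labelled P2Y2 KO, at a log2FC of -0.16 without the first untreated library labelled P2Y2 KO, -0.89 without their first UTP-treated one, -1.2 in the 5 libraries with both Xist and Y-linked reads, and 0.00 (just below 0) in limma. With DESeq2, UTP called 3 members in WT and 5 averaged over genotypes, where 3.24% and 3.91% of all genes were called. With no minimum, the fold change rule gave 10 members in WT and 5 in the libraries labelled P2Y2 KO. The share of all genes past it at that setting was not computed. The test with no minimum called 8 members for UTP in WT (3.47% of all genes). It called 1 for UTP in the libraries labelled P2Y2 KO (Adam8, 1.02%) and 1 for the difference (Adam8, 0.0897%). It called 8 averaged (3.89%) and 16 for P2Y2 KO against WT with UTP (11.5%). The Xist covariate gave 3 averaged (3.38% of all genes) and 5 for P2Y2 KO against WT untreated (8.19%). The 5 libraries gave 4, 2 and 4 for UTP in WT, in the libraries labelled P2Y2 KO and averaged, and 24 for P2Y2 KO against WT with UTP; there the groups with 1 library were assumed to vary like the pair of WT with UTP.

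Leaving out 1 library gave 0 to 13 members for UTP in WT, 0 to 1 in the libraries labelled P2Y2 KO, 0 to 2 for the difference, 0 to 13 averaged, 3 to 16 for P2Y2 KO against WT untreated and 1 to 11 with UTP; the fold change rule gave 2 to 7 and 0 to 1. The averaged call of Adam8 was lost without either UTP-treated WT library, the first untreated or the first UTP-treated library labelled P2Y2 KO (adjusted p = 0.0607, 0.093, 0.0632 and 0.0507 from edgeR). For Mmp9 with UTP in the libraries labelled P2Y2 KO the log2FC then lay between -0.89 and 0.77. The groups left with 1 library were assumed to vary like the others. Calls over all genes also moved with the library left out, so that nothing particular to the members is read from these ranges.

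No source states that same-numbered libraries share a mouse or culture. The correlation of their deviations from the group means was 0.0212 between the WT groups and 0.437 between those labelled P2Y2 KO, whose first libraries both had almost no Xist. The main test had no block. With the replicate block, UTP called 1 member in WT (1.56% of all genes) and 0 in the libraries labelled P2Y2 KO (0.0342%). It called 0 for the difference (0.0%) and 1 averaged (2.56%). P2Y2 KO against WT called 18 untreated (18.8%) and 9 with UTP (16.5%).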
